A study of Mus musculus with 4 samples.

Results

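The proteasome genes of mouse bone marrow (BM) macrophages were examined in macrophages that had engulfed apoptotic prostate cancer cells and in macrophages that had not. Members were the rows of the single-cell count tables whose symbol begins with Psma, Psmb, Psmc, Psmd, Psme, Psmf or Psmg followed by a digit, without the immunoproteasome genes Psmb8, Psmb9 and Psmb10 and without pseudogenes. This rule found 47 of 31053 genes. They comprised 16 genes of the core, 20 of the cap, 5 activators, 4 assembly chaperones and 1 inhibitor. The remaining gene, Psmc3ip, matched the rule by its symbol alone, since it encodes a meiotic recombination factor. Of the 47 genes, 46 passed the filter on low counts and were tested, and Psmb11, whose product replaces a catalytic subunit in the thymus, had 2 UMIs in 1 library and 0 in the other 3.

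The proteasome is the large protease that degrades proteins marked with ubiquitin in the cytosol and nucleus. Its core is a barrel of stacked rings, in which the outer alpha rings gate the entry and the inner beta rings hold the proteolytic sites. The cap binds ubiquitin chains, removes them, unfolds the substrate with a ring of ATPases and feeds it into the core. Activators can bind the ends of the core in place of the cap. In macrophages the peptides released are also a source for antigen presentation, and interferon exchanges the catalytic subunits for immunoproteasome subunits.

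The study cultured BM macrophages of young male C57BL/6J mice with M-CSF, a growth factor that drives macrophage differentiation, and added RM1 cells, a Ras and Myc transformed mouse prostate cancer line killed by ultraviolet light and labelled with the dye CFSE, for 16 to 18 h. Macrophages positive for the surface protein F4/80 and for CFSE were sorted as efferocytic and those positive for F4/80 alone as non-efferocytic. Each of 2 experiments gave 1 library per group, so that each group had 2 libraries, and the genotype was the same in both groups. The study states a minimum number of mice per group for its macrophage experiments as a whole, but not how many stand behind each library, so p-values measure the spread between these libraries. The labels separate cells that took up dye from cells that did not. They do not separate uptake from other properties of cells that take up dye. The study's discussion calls the non-efferocytic cells macrophages alone, and its methods do not state whether they came from the co-culture. Exposure to apoptotic cells may therefore also differ between the groups and cannot be told apart from uptake. RM1 cells and macrophages come from the same mouse strain, so RNA of engulfed cells and of the macrophage itself cannot be told apart by sequence.

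The libraries held 6695 to 13411 cells and 101216659 to 155224183 UMIs (unique molecular identifiers, each standing for 1 captured mRNA) in cells. Efferocytic cells were deeper, at a mean of 18670 and 18462 UMIs in Experiments 1 and 2, against 12224 and 10316 in the non-efferocytic libraries. All 12 macrophage markers were detected in every library, with a summed level of 35771 to 41592 CPM (UMIs of a gene per 1000000 UMIs of the library's cells) in non-efferocytic and 25234 to 33206 in efferocytic libraries. The 9 neutrophil markers, all detected in every library, summed to 3046 and 3339 CPM in non-efferocytic and to 953 and 705 CPM in efferocytic libraries. Likewise the 4 monocyte markers summed to 59.2 and 62.2 against 21.8 and 11.1 CPM and the 6 fibroblast markers to 145 and 121 against 46.5 and 52.0 CPM. Of 8 epithelial markers, 4, 3, 1 and 1 were at 0 in the order used below (non-efferocytic then efferocytic of Experiment 1, then the same of Experiment 2), and their sums were 0.188, 0.0960, 10.2 and 8.77 CPM. Cell barcodes were shared by 14 to 23 cells between libraries of any pair except the libraries of Experiment 2, which shared 118, or 0.880% of the non-efferocytic and 1.40% of the efferocytic cells. Leaving out all shared barcodes gave the same 28 calls among members as are described below.

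Promoter sequence was taken from RefSeq on GRCm38.p6, 250 bases before to 50 bases after each transcription start, and was found for 39 of the 47 members, with 42 windows. Proteasome genes are classically controlled through the antioxidant response element (ARE), the motif bound by the factors NRF1 and NRF2. The motif was searched as TGACNNNGC on both strands, and 6 of 42 member windows (14.3%) held it, against 14.4% of the windows of genes tested and 12.4% of all windows. The windows of Psmb5, Psmb6, Psmd12 and Psmc6, whose transcripts rose in efferocytic macrophages, are shown with the motif in capitals, followed by Psmd9, which held the motif and did not pass the test, and by Psmd8 and Psma5, the cap member with the highest and the core member with the lowest fold change, which held no match.
Psmb5, chr14:54618008-54618067, minus strand: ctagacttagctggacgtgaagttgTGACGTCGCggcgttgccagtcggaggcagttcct
Psmb6, chr11:70525297-70525356, plus strand: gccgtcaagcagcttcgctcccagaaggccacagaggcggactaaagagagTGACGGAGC
Psmd12, chr11:107479278-107479337, plus strand: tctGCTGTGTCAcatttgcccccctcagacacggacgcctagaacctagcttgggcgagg
Psmc6, chr14:45329574-45329633, plus strand: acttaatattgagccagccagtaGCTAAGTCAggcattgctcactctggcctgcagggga
Psmd9, chr5:123228130-123228189, plus strand: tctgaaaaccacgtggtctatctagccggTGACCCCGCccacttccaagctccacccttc
Psmd8, chr7:29180674-29180733, minus strand: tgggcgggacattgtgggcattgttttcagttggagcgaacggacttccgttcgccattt
Psma5, chr3:108256866-108256925, plus strand: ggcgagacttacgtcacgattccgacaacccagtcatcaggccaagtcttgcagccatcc

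In Psmb5, Psmb6 and Psmd9 the match lay on the strand of the gene, starting at -47, -9 and -31 from the RefSeq start, and in Psmd12 and Psmc6 on the opposite strand at -247 and -227. The sixth match, in Psme4, crossed the start and is not shown. The NF-Y box CCAAT was held by 33.3% of member windows, against 37.7% of the windows of genes tested. The core of the interferon-stimulated response element, searched as GAAANNGAA, was held by 7 of 42 member windows (16.7%), namely those of Psmb3, Psmb4, Psmc2, Psmd4, Psmd9, Psme1 and Psmg4, against 7.41% of the windows of genes tested. Of these 7 genes, Psmb3 rose in efferocytic macrophages and the other 6 did not pass the test. A match is a string of letters and not a measured binding site.

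Transcripts of the core and the cap were higher in efferocytic than in non-efferocytic macrophages in both experiments. In a fit over all 13869 genes tested (edgeR's quasi-likelihood test on UMIs summed per library, with the experiment as a block and Benjamini-Hochberg adjustment), 28 of 46 members rose, none fell, and 33 had an unadjusted p under 0.05. Over all genes tested 38.9% were called, 19.9% as higher and 19% as lower. The median log2 fold change of the members was 0.28, against -0.02 over all genes tested. Of the core 10 of 15 members rose, of the cap 14 of 20, of the activators 2 of 5 and of the assembly chaperones 2 of 4, and the inhibitor Psmf1 did not pass the test (log2 fold change 0.03 ± 0.08, SE). Efferocytic levels lay above non-efferocytic levels without overlap for 13 of 15 core, 19 of 20 cap, 2 of 5 activator and 3 of 4 assembly members, whereas this held for 33.7% of all genes tested (68.5% when either direction is counted). The study's own tables of genes higher in efferocytic cells print 8 of the members, a choice made on these samples, and without those 8 genes 20 of 38 members rose with a median of 0.26.

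**Figure D1:**
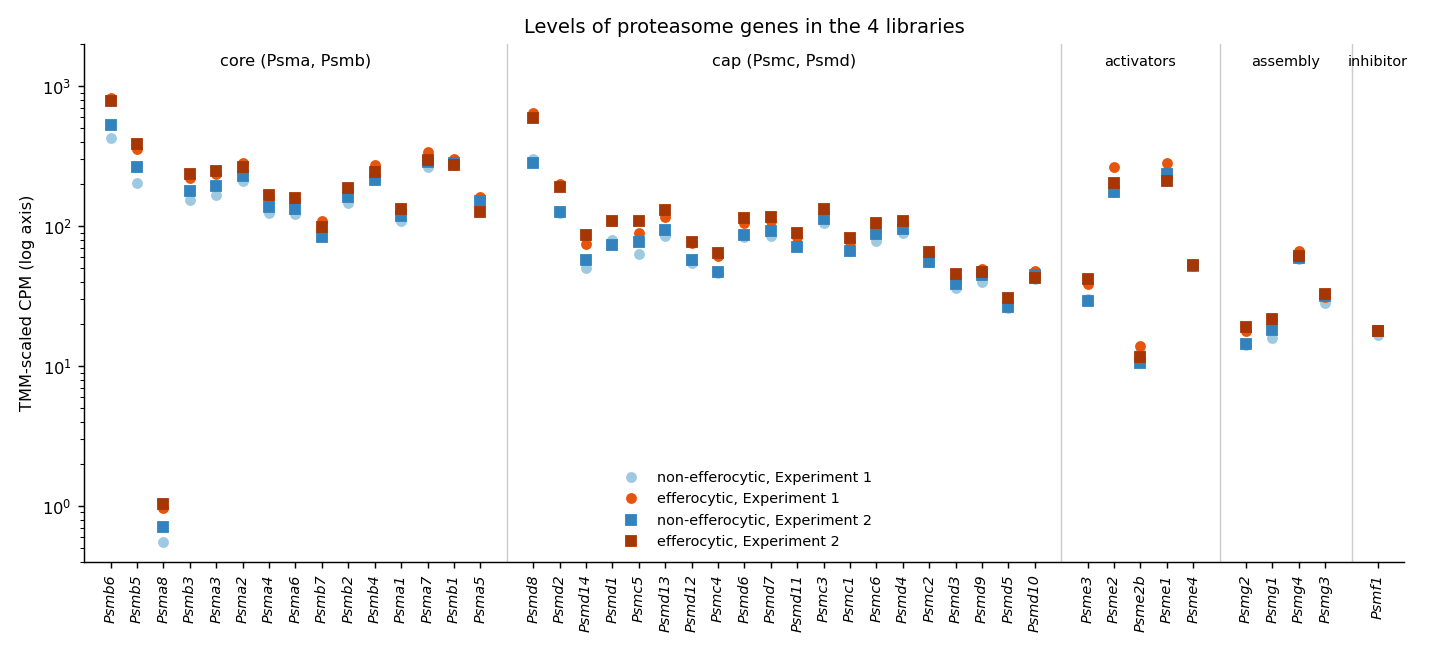
Level of each tested proteasome gene in each of the 4 libraries, as CPM scaled by the trimmed mean of M values (TMM) on a log axis, with genes ordered by log2 fold change within core, cap, activators, assembly chaperones and inhibitor (Psmc3ip is not drawn). Efferocytic libraries (orange and brown) lie above non-efferocytic libraries (light and dark blue) for 13 of 15 core and 19 of 20 cap genes.

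Several limits bear on these counts. The main fit, with 4 libraries and the experiment as a block, leaves 1 residual degree of freedom. With cells rather than UMIs as the scale, the median of all genes moved from -0.02 to 0.60 and all 46 members were called higher, against 49.9% of genes; with library totals and no TMM scaling it moved to -0.12 and 16 members were called, all of them higher, against 13.3% of genes. In a fit of only those genes that averaged 10 CPM or more, 16 of 44 members were called, all as higher, against 20.8% of the 7097 genes in that fit, and the medians of core and cap lay 0.20 and 0.22 above the median of all genes in that fit, compared with 0.32 and 0.33 over the 13869 genes. Leaving out a library leaves 3 and no block: edgeR then called 0 members without the non-efferocytic library of Experiment 1 (13 at an unadjusted p under 0.05), 0 without that of Experiment 2 (21 at an unadjusted p under 0.05) and, with an efferocytic library left out, 13 (Experiment 1) and 5 (Experiment 2), all as higher, against 11.5% and 4.44% of genes. Without the non-efferocytic library of Experiment 1 the fit called 2 of 14207 genes and without that of Experiment 2 it called 0 of 14036 (2999 and 3494 at an unadjusted p under 0.05), so the 0 members called there say nothing about the members. Without the block, 12 members were called, all as higher, against 9.27% of genes. The counts of members whose groups did not overlap also depend on the scaling. With library totals and no TMM scaling, the groups of Psma1, Psma7, Psmc6, Psmd3, Psmd4, Psmd5, Psmd9 and Psmg4 overlapped as well. With the 4 libraries kept, 16 of the 28 calls were lost in 1 to 10 of 16 alternatives, most often for Psmb2, Psmc1, Psmc6 and Psma2.

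All 3 catalytic beta subunits rose. Psmb6, at chromosome 11, 70525367 to 70527858 (plus strand, GRCm38), encodes the caspase-like site and stood at 429, 824, 525 and 786 TMM-scaled CPM in the 4 libraries. Both efferocytic libraries were above both non-efferocytic libraries (477 ± 68.0 to 805 ± 26.6, mean ± SD, n = 2), with a log2 fold change of 0.76 ± 0.13 (SE, adjusted p = 0.0027). Psmb5, at chromosome 14, 54614119 to 54618022 (minus strand), encodes the chymotrypsin-like site and stood at 204, 354, 263 and 386 CPM. Its groups did not overlap, and its log2 fold change was 0.68 ± 0.10 (adjusted p = 0.0022). Psmb7, at chromosome 2, 38588036 to 38644087 (minus strand), encodes the trypsin-like site and stood at 84.8, 109, 83.3 and 97.8 CPM. It rose by 0.29 ± 0.08 (adjusted p = 0.0246), the smallest change of the catalytic subunits, and its groups did not overlap. Its call was lost without TMM scaling (adjusted p = 0.121), without the block (0.0743), in the fit of genes averaging 10 CPM or more (0.104) and after removal of 10% of UMIs as free RNA (0.0757). Pseudogenes of Psmb5, Psmb6 and Psmb7 are annotated, and their reads may be split from or added to the parent gene by the counting.

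Of the beta subunits without catalytic activity, Psmb3 (log2 fold change 0.47 ± 0.09) and Psmb2 (0.27 ± 0.09) rose, whereas Psmb4 (0.27 ± 0.09, adjusted p = 0.0559) and Psmb1 (0.06 ± 0.10, adjusted p = 0.673) did not pass the test. Psmb2 and Psmb4 had about the same fold change on either side of the threshold: Psmb2 lost its call in 10 of 16 alternatives and Psmb4 gained one in 3. Of the alpha ring, which gates the core, Psma3 rose by 0.44 ± 0.09 and Psma2, Psma4 and Psma6 rose by 0.30 to 0.31, calls that were lost in 8, 4 and 5 of 16 alternatives, while that of Psma3 was lost only without the block. Psma1, Psma7 and Psma5 did not pass the test. Psma5, at chromosome 3, 108256926 to 108279974 (plus strand), had the lowest fold change of the core and stood at 152, 162, 151 and 127 CPM. Its groups overlapped, and its log2 fold change of -0.08 ± 0.10 (adjusted p = 0.574) became 0.54 when scaled to cells. Psma8, an alpha subunit of the testis, rose by 0.67 ± 0.21 (adjusted p = 0.033) and lost its call in 5 alternatives. It was low, at 0.552, 0.963, 0.704 and 1.04 CPM and 58 to 160 UMIs per library. Among the core subunits of the common complex, without Psma8, 9 of 14 rose.

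Within the core, the shares of subunits moved. Psmb6 took 16.1% and 17.7% of core UMIs in the non-efferocytic libraries of Experiments 1 and 2 and 22.1% and 21.8% in the efferocytic libraries. The share of Psmb5 rose by 1.82 and 1.81 percentage points, while that of Psmb1 fell by 2.11 and 1.94 points and that of Psma5 fell by 1.38 and fell by 1.59 points. These shares do not depend on the scaling of the libraries and were not tested.

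In the cap, most members of the lid and of the base rose. The lid, which holds the deubiquitinase Psmd14, rose in 7 of 8 members with a median of 0.41. The ATPases Psmc1 to Psmc6, which unfold the substrate, rose in 5 of 6 members with a median of 0.26, and Psmc2 did not pass the test (0.21 ± 0.07, adjusted p = 0.057). Psmc1, Psmc3 and Psmc6 lost their calls in 9, 7 and 9 of 16 alternatives, among them DESeq2, no TMM scaling, the fit of genes averaging 10 CPM or more and thinned cells, where Psmc4 and Psmc5 alone of the ATPases were called. The call of Psmc5 was lost without the block (adjusted p = 0.0666). Of the other base subunits, the scaffold proteins Psmd2 (0.65 ± 0.09) and Psmd1 (0.52 ± 0.08) rose and the ubiquitin receptor Psmd4 did not pass the test (0.22 ± 0.08, adjusted p = 0.0647). None of the chaperones Psmd5, Psmd9 and Psmd10, which assemble the base and leave the finished complex, passed the test, at an unadjusted p of 0.0724, 0.064 and 0.418. The difference between these groups of subunits was not tested.

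Psmd8, a lid subunit at chromosome 7, 29174188 to 29180701 (minus strand), had the highest fold change of the members tested, other than in cells with macrophage markers alone, where the low Psma8 stood at 1.09 and Psmd8 at 1.05. It stood at 301, 638, 283 and 587 CPM, so that both efferocytic libraries held about the same level and both non-efferocytic libraries about the same lower level. This is 292 ± 12.6 against 612 ± 35.7 (SD, n = 2), or a log2 fold change of 1.07 ± 0.10 (adjusted p = 0.000278), with a log2 ratio of 1.08 in Experiment 1 and 1.05 in Experiment 2. The call held in all 16 alternatives with 4 libraries, at a log2 fold change of 0.96 to 1.68. Without either non-efferocytic library, where the fits called next to no gene, it was 1.12 and 1.03. Psmd8 took 19.0% and 17.3% of cap UMIs in non-efferocytic and 27.8% and 25.2% in efferocytic libraries.

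The other lid members had lower fold changes. Psmd14, which cuts ubiquitin chains from the substrate, rose by 0.59 ± 0.08 (53.8 ± 4.80 to 80.8 ± 8.62 CPM). Psmd13, Psmd12, Psmd6, Psmd7 and Psmd11 rose by 0.27 to 0.47, with the call of Psmd11 lost in 6 of 16 alternatives and that of Psmd7 in 2, and Psmd3 did not pass the test (0.19 ± 0.08, adjusted p = 0.0749). Psmd10, on chromosome X from 140948429 to 140956728 (minus strand), had the lowest fold change of the cap and stood at 41.6, 48.2, 44.7 and 42.8 CPM. Its groups overlapped (log2 fold change 0.08 ± 0.09, adjusted p = 0.525).

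**Figure D2:**
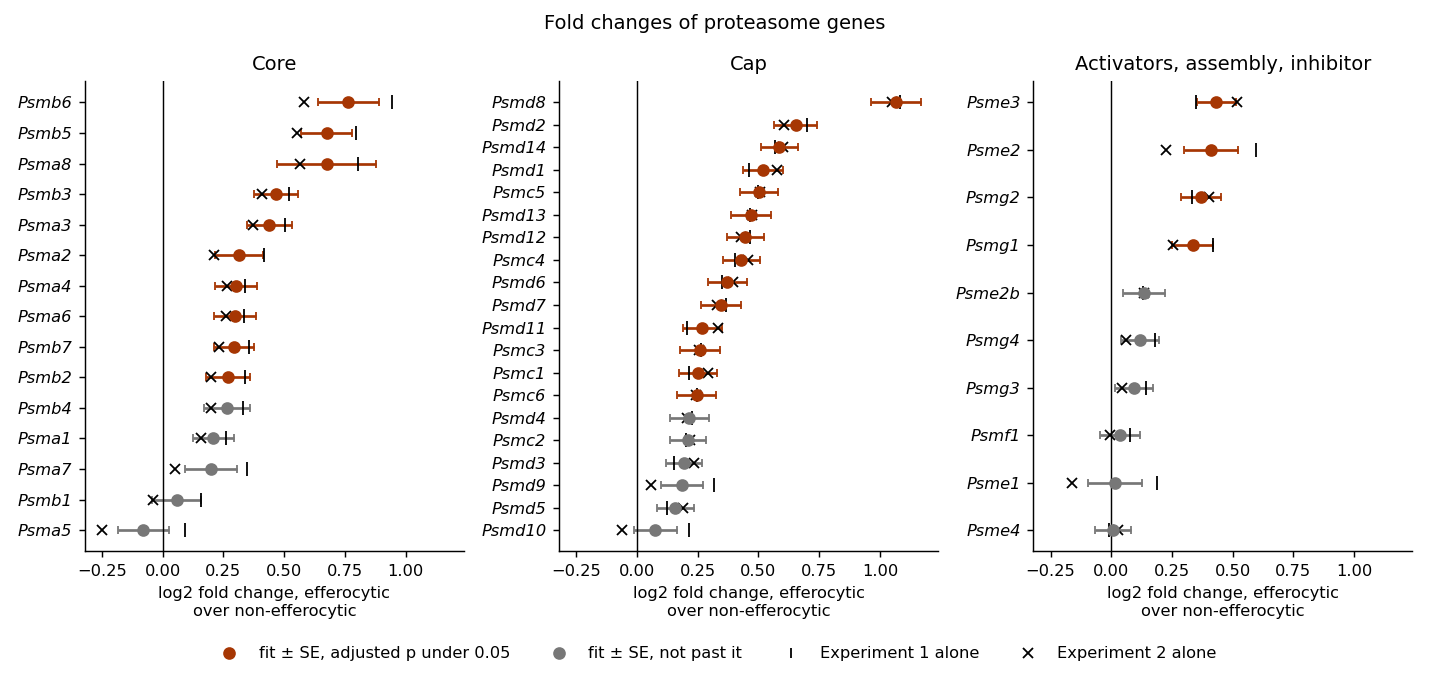
Log2 fold change of each tested member, efferocytic over non-efferocytic, with its SE (dots and bars, brown where the adjusted p was under 0.05) and the ratio within each experiment (vertical tick, Experiment 1, and cross, Experiment 2). Psmd8 lies furthest to the right at 1.07, and Psma5, Psmb1, Psmd10, Psme1, Psme4 and Psmf1 have ratios on both sides of 0.

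Of the 5 activators, Psme2 and Psme3 rose and the other members did not pass the test (median 0.13, against -0.02 over all genes tested). Psme2, which forms a ring with Psme1 that is induced by interferon, stood at 175, 264, 175 and 205 CPM and rose by 0.41 ± 0.11 (adjusted p = 0.0216), more in Experiment 1 (0.60) than in Experiment 2 (0.22), a difference that was not tested. Its call was lost without the block (adjusted p = 0.0957), in the fit of genes averaging 10 CPM or more (0.0592) and after free RNA removal (0.0969). Its partner Psme1 stood at 246, 280.4, 234 and 209.7 CPM. The groups of Psme1 overlapped, with a log2 fold change of 0.01 ± 0.11 (adjusted p = 0.927). Psme3, a nuclear activator, stood at 30.4, 38.7, 29.3 and 41.9 CPM, with both efferocytic libraries above both non-efferocytic libraries, and rose by 0.43 ± 0.08 (adjusted p = 0.0044). Psme4, a single-chain activator, stood at 52.0, 51.6, 52.1 and 53.1 CPM (0.01 ± 0.07, adjusted p = 0.936). Psme2b, a copy of Psme2 that can share its reads and whose exons overlap another gene on the same strand, stood at 12.6, 13.8, 10.6 and 11.6 CPM and is uncertain for both reasons (0.13 ± 0.09, adjusted p = 0.252).

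Of the assembly chaperones of the core, Psmg2 (0.37 ± 0.08, adjusted p = 0.0098) and Psmg1 (0.33 ± 0.08, adjusted p = 0.0164) rose, whereas Psmg4 (0.12 ± 0.08) and Psmg3 (0.09 ± 0.08) did not pass the test. Both calls were lost without the block and without TMM scaling, and that of Psmg1 also with DESeq2, in the fit of genes averaging 10 CPM or more and after free RNA removal. Psmg3 and Psmd1 each overlap an exon of another annotated gene on their own strand, so their counts are less certain. Psmc3ip stood at 1.49, 1.68, 1.83 and 2.27 CPM and did not pass the test (0.24 ± 0.15, adjusted p = 0.239).

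The immunoproteasome subunits, which replace the catalytic subunits after interferon and are not members, were not called higher on the TMM scale. Scaled to cells, Psmb8 (0.66, adjusted p = 0.0039) and Psmb10 (0.50, adjusted p = 0.0412) were called higher, as were 49.9% of genes. Psmb9, the counterpart of Psmb6, stood at 92.2, 78.6, 94.2 and 57.5 CPM. Both efferocytic libraries were below both non-efferocytic libraries, and Psmb9 fell by 0.47 ± 0.12 on the log2 scale (adjusted p = 0.0149), a direction that turned to 0.15 (adjusted p = 0.599) when scaled to cells. The call of Psmb9 was also lost without the block (adjusted p = 0.102) and after removal of 10% of UMIs as free RNA (adjusted p = 0.0721). Psmb10, the counterpart of Psmb7, stood at 137, 142, 133 and 109.7 CPM, with overlapping groups (-0.12 ± 0.10, adjusted p = 0.399). Psmb8, the counterpart of Psmb5, stood at 179.7, 205, 202 and 188 CPM, also with overlapping groups (0.04 ± 0.10, adjusted p = 0.76). The UMI ratio of each pair within a library needs no scaling. The ratio of Psmb6 to Psmb9 was 4.65 and 10.5 in the non-efferocytic and efferocytic libraries of Experiment 1 and 5.57 and 13.7 in those of Experiment 2. The ratio of Psmb5 to Psmb8 went from 1.13 to 1.73 and from 1.31 to 2.06, and that of Psmb7 to Psmb10 from 0.619 to 0.765 and from 0.624 to 0.892. All 3 ratios were thus higher in the efferocytic library of each experiment, by 0.30 to 1.29 on the log2 scale, with no test.

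**Figure D3:**
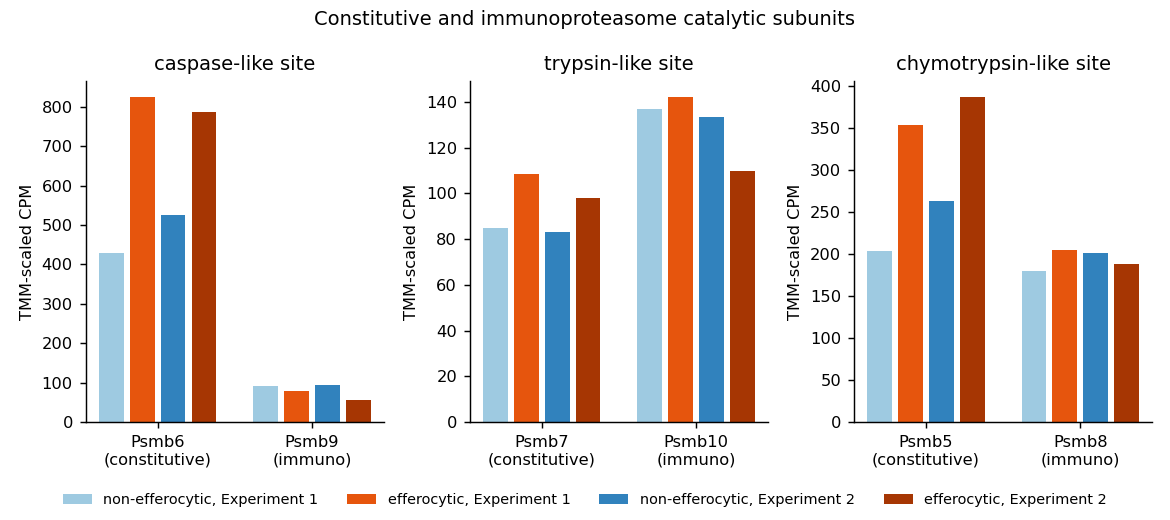
TMM-scaled CPM (bars from 0) of the constitutive catalytic subunits and their immunoproteasome counterparts at each proteolytic site, 1 bar per library. Psmb6, Psmb7 and Psmb5 stand higher in the efferocytic library of each experiment, and Psmb9 stands lower, at 78.6 and 57.5 against 92.2 and 94.2 CPM.

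Summed over their members, the core stood at 2656, 3727, 2957 and 3610 CPM (95% exact Poisson intervals of 2646 to 2665 and 3716 to 3738 in Experiment 1, which cover counting error only). This was 1.40-fold higher in the efferocytic library of Experiment 1 and 1.22-fold higher in that of Experiment 2. The cap stood at 1583, 2296, 1635 and 2332 CPM, or 1.45-fold and 1.43-fold higher. The activators stood at 516, 649, 502 and 521 CPM, or 1.26-fold and 1.04-fold higher; as plain CPM, without TMM scaling, the activators were 1.14-fold and 0.991-fold, the core 1.27-fold and 1.16-fold and the cap 1.31-fold and 1.36-fold those of the non-efferocytic libraries. Leaving out the members with the highest fold changes, which were picked after their values were seen, reduced but did not end the differences. The core without Psmb6 and Psmb5 was 1.26-fold and 1.12-fold higher, and the cap without Psmd8 was 1.29-fold higher in both experiments.

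Since efferocytic cells were deeper, the sums were compared between cells of like depth, here as plain CPM. The core was higher in the efferocytic library of each experiment in each of 4 bins of UMIs per cell. The closest values were 2597 and 2715 CPM, in cells with 5000 to 10000 UMIs of Experiment 2. In the same bin of Experiment 1 the core stood at 2300 and 2631 CPM. The cap differed by more in this bin, at 1478 and 2048 CPM in Experiment 1 and 1497 and 2133 CPM in Experiment 2, and was higher in the efferocytic library in every bin. The activators were higher in the efferocytic library in all 4 bins of Experiment 1 and lower in all 4 bins of Experiment 2. In Experiment 2 their 95% Poisson intervals overlapped in cells with 1000 to 5000 UMIs (476 and 470 CPM) and with 5000 to 10000 UMIs (486 and 474 CPM). On the TMM scale their sum over all cells of Experiment 2 was 1.04-fold higher, so the direction depends on the scaling. In every library the core stood higher in cells with 20000 or more UMIs than in cells with 10000 to 20000, for example at 3564 and 3081 CPM in the non-efferocytic library of Experiment 2.

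**Figure D4:**
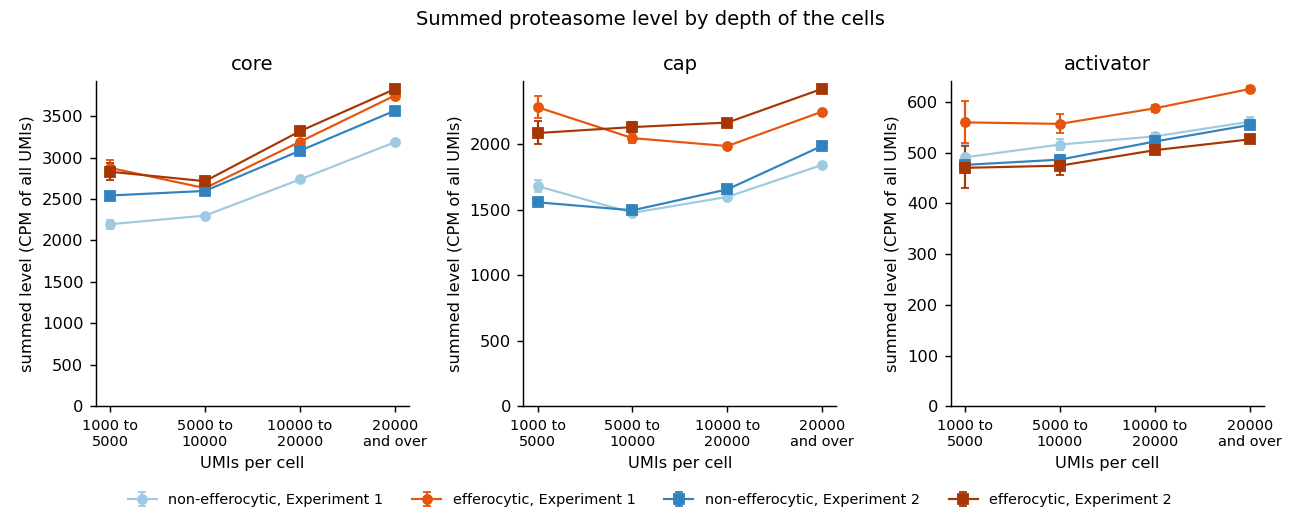
Summed level of core, cap and activator genes (CPM of all UMIs in the bin, axis from 0) in cells grouped by UMIs per cell, 1 line per library, with 95% exact Poisson intervals that cover counting error only. Efferocytic lines lie above the non-efferocytic line of the same experiment in each bin for core and cap, and below it for the activators of Experiment 2. The activator intervals of Experiment 2 overlap in the bins under 10000 UMIs.

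After each cell of at least 5000 UMIs was thinned to 5000, which left out 505 to 3404 cells per library, the median cell held 13, 16, 14 and 17 core UMIs and 7, 10, 8 and 11 cap UMIs. The 10th to 90th percentiles of the cells overlapped widely, at 7 to 19 and 10 to 24 core UMIs in Experiment 1. The median cell held UMIs of 8, 9, 8 and 9 different core genes. On the thinned sums 21 of 46 members were called, all as higher, against 17.8% of the genes tested on those sums.

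The difference was also present in cells with macrophage markers and no UMI of neutrophil, fibroblast, lymphoid or epithelial markers, which made up 71.4%, 70.2%, 42.0% and 75.9% of cells. As plain CPM, the core in them stood at 2696 and 3434 in Experiment 1 and at 3005 and 3535 in Experiment 2. The cap stood at 1632 and 2140 and at 1662 and 2303 plain CPM. In these cells 22 of 46 members were called, all as higher, against 18.5% of the genes tested in them. In cells with 3 or more UMIs of cycling genes the core stood at 2934, 3759, 3212 and 3722 plain CPM. In the other cells it stood at 2715, 3455, 3033 and 3539 plain CPM. Without cells holding an epithelial UMI 27 of 46 members were called, all as higher, against 19.3% of genes. This left out only 13, 12, 22 and 15 cells, so the result could hardly differ from the main fit. The study lists RM1 as fibroblast-like, so these markers need not mark cells that hold its RNA.

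Genes that work with the proteasome were read from lists of known function, by counts beside the shares over all genes given above. Of 12 tested proteins that bind or assemble the proteasome, 6 rose and none fell, with a median of 0.32. These included the deubiquitinases Usp14 (39.9 ± 2.46 to 58.1 ± 10.3 CPM, log2 fold change 0.53 ± 0.08) and Uchl5 (0.49 ± 0.08), the phosphatase Ublcp1 (0.56 ± 0.10) and Zfand2a (0.41 ± 0.08). The ubiquitin receptor Adrm1 (0.39) and the core assembly factor Pomp (0.37) also rose. Of 19 genes of ubiquitin, its activating enzymes and shuttles, 8 rose and none fell (median 0.20), among them Vcp, the ATPase that extracts ubiquitinated proteins (174 ± 1.64 to 253 ± 19.7 CPM, 0.54 ± 0.10), Faf1 (0.42 ± 0.09) and Uba1, the main ubiquitin activating enzyme (0.42 ± 0.09).

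Of 15 genes that act in the transcription of proteasome genes, 2 rose and 1 fell (median 0.04). The share that rose, 13.3%, was not above the 19.9% over all genes tested. Nfe2l1, which encodes NRF1, rose from 50.8 ± 1.76 to 63.7 ± 2.69 CPM (0.33 ± 0.08, adjusted p = 0.0142), and Syvn1, a ubiquitin ligase of the endoplasmic reticulum that turns NRF1 over, by 0.38 ± 0.08. The call of Nfe2l1 was lost without TMM scaling (adjusted p = 0.0799) and that of Syvn1 without the block (adjusted p = 0.087), and both were lost after free RNA removal (adjusted p = 0.0744 and 0.0535). Irf1, an interferon factor that drives immunoproteasome genes, fell from 22.4 ± 2.67 to 12.2 ± 3.09 CPM (-0.89 ± 0.16, adjusted p = 0.0039). It stayed lower when scaled to cells, without passing the test (-0.27, adjusted p = 0.374). Of 9 peptidases that trim proteasome products, 5 rose and none fell (median 0.34), led by Erap1, which trims peptides in the endoplasmic reticulum (0.59 ± 0.08), followed by Nln, Dpp3 and Prep at 0.35 to 0.38. Of 13 cytosolic chaperones and their partners 5 rose and 3 fell. The largest falls were those of Hspb1 (-1.79 ± 0.24) and Hspa1b (-1.09 ± 0.22), at low mean levels of 2.19 and 1.12 CPM. Hsp90aa1 rose from 127 ± 3.01 to 231 ± 28.0 CPM (0.86 ± 0.09), and Hsph1 (0.43 ± 0.08) and Stip1 (0.40 ± 0.09) also rose, whereas Hspa8, a constitutive chaperone, fell from 1179 ± 39.7 to 879 ± 9.33 CPM (-0.42 ± 0.12, adjusted p = 0.0242; 0.20 when scaled to cells).

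Other large complexes of the cytosol gave values for comparison. The COP9 signalosome, built on the same plan as the lid, rose in 5 of 10 genes (median 0.23), with Cops9 at 0.66 ± 0.10, Gps1 at 0.53 ± 0.08, Cops3 at 0.47 ± 0.08 and Cops5, its catalytic subunit, at 0.36 ± 0.08. The translation initiation complex eIF3, also related to the lid, rose in 3 of 14 genes (median 0.08), namely Eif3b (0.65 ± 0.09), Eif3j1 (0.42 ± 0.08) and Eif3a (0.30 ± 0.10). This share, 21.4%, was near the 19.9% over all genes tested. The chaperonin TRiC rose in 2 of 7 genes (median 0.24), Cct3 (0.46 ± 0.08) and Cct8 (0.45 ± 0.08). Without the block the calls of Usp14, Uchl5, Ublcp1, Stip1, Prep, Dpp3, Eif3a and Cct8 were lost, and after removal of free RNA those of Faf1, Uba1, Irf1, Stip1, Prep, Dpp3, Cops5 and Eif3a. Eif3a lost its call in 8 of 16 alternatives and Prep in 7, and Dpp3 and Cops5 also lost theirs without TMM scaling. In the main fit the proteasome core and cap had the higher shares of called genes and the higher medians. The order of the shares did not hold in every setting. Without the block 3 of 15 core genes were called, while Cops9, Gps1, Cops3 and Cops5 of the 10 COP9 genes kept their calls. The difference between the complexes was not tested.

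The members lay on 16 chromosomes. A gene on the opposite strand began within 1000 bases of the start of 8 of 47 members (17.0%), against 10.4% of the protein-coding genes tested. Among these pairs were Psmc5 with Ftsj3 at 75 bases and Psma2 with Mrpl32 at 75 bases, both members that rose, and Psmb1 with Tbp at 137 bases and Psmd10 with Atg4a at 179 bases, both of which did not pass the test.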

How the data were processed

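The data are 10x Genomics 3′ single-cell RNA-seq of sorted macrophages, with 2 efferocytic and 2 non-efferocytic libraries. The authors aligned reads to mm10 and made gene by barcode counts of UMIs with Cell Ranger 3.0.0 per the labels; the headers of the deposited files name 3.0.0 for Experiment 1 and 3.1.0 for Experiment 2. The deposited counts are raw and hold all 6794880 barcodes. The filter stated in the authors' methods was applied to all barcodes, which keeps barcodes with 200 or more genes, 1000 or more UMIs and a mitochondrial share of no more than 10%. In each library this left more cells than the study states, so its cell set was not rebuilt; an alternative added the 10% rule of Cell Ranger's cell calling. No doublet caller was run, and the 5% deepest cells were left out as an alternative. A deposited table of the authors' own differential expression (fold changes and p-values per gene) was not used.

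UMIs were summed per library and tested with edgeR 4.0.16 (R 4.3.3), with TMM scaling, its filter on low counts, the experiment as a block and a threshold of 0.05 after Benjamini-Hochberg adjustment over 13869 genes. The SE was obtained from the F statistic of each test as |log2 fold change|/√F. The study's data statement gives each experiment as a pair of libraries. Deviations of same-experiment libraries from the group means correlated at 0.672 over 7097 genes. Levels are TMM-scaled CPM unless called plain. Sums of cell type markers are plain CPM as well. The script was tested on simulated data, where it found 30 of 100 genes changed by 0.4 on the log2 scale and 99 of 100 changed by 1. A gene that did not pass the test may thus still have changed. The simulation changed far fewer genes than were called in the data and gave every gene the same dispersion. Its shares found therefore need not hold for these data. Alternatives included DESeq2 1.42.0, other scalings, filters and cell sets.

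The members and gene lists were chosen with earlier results of these data known. Values in every library are given for the catalytic core subunits, the activators and the members with the highest and lowest fold change in core and cap; from each other list up to 4 genes with the largest absolute fold change among those called at a mean of at least 10 CPM are given, and Adrm1 and Pomp were added after their values were seen. One gene named by this rule is not reported here. Gene positions are those of GENCODE on GRCm38. Promoter windows of Psma8, Psmb1, Psmb2, Psmb7, Psmc3, Psmd3, Psmd7 and Psmg2 were not used here.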

Additional observations from a re-analysis of the deposited data

Results flagged for a closer look

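The fold change of 6 members and 2 immunoproteasome genes pointed in opposite directions in the experiments, and with 1 library per group and experiment the difference was not tested. The log2 ratios of efferocytic over non-efferocytic in Experiments 1 and 2 were 0.19 and -0.16 for Psme1, 0.21 and -0.062 for Psmd10, 0.092 and -0.25 for Psma5, 0.16 and -0.042 for Psmb1, 0.077 and -0.0069 for Psmf1 and -0.0095 and 0.026 for Psme4. They were 0.052 and -0.28 for Psmb10 and 0.19 and -0.10 for Psmb8. None of these 8 genes passed the test.

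Barcodes with under 100 UMIs, which are not counted as cells, also held more proteasome RNA in the efferocytic libraries. All levels in this paragraph are plain CPM. The core stood there at 3342 CPM (Experiment 1) and 3418 CPM (Experiment 2) in efferocytic libraries, against 2821 and 2987 CPM in non-efferocytic libraries. The cap stood at 1944 and 2093 CPM, against 1583 and 1579 CPM, and the activators at 588 and 540.0 CPM, against 553 and 538 CPM. The core and cap levels of the efferocytic libraries were higher in cells, at 3497 and 3572 and at 2154 and 2308 CPM. With 10% of UMIs removed from the cells by the profile of these barcodes, 15 members were called, all as higher, against 10.5% of genes.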

How the results depend on the processing

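In every setting the calls among members were all higher, and 12 of the 28 held in all 16 alternatives with 4 libraries (Psmb3, Psmb5, Psmb6, Psmc4, Psmd1, Psmd2, Psmd6, Psmd8, Psmd12, Psmd13, Psmd14, Psme3). Counts of calls are given for all genes, members, core, cap and activators (5397, 28, 10, 14 and 2). Without the replicate block they were 2358, 12, 3, 8 and 1. DESeq2 called 3338 genes. Without TMM scaling 16 members and 4 core genes were called, with 1847 genes higher and 3700 lower over all genes (2761 and 2636 with TMM). Scaled to cells, 46 members and 5 activators were called, with 6921 genes higher and 586 lower, and the log2 fold change turned to 0.54 for Psma5, 0.15 for Psmb9, 0.50 for Psmb10 and 0.20 for Hspa8. Genes of at least 10 CPM alone gave 3026, 16, 4 and 1 (cap not moved by over 1.5 times). Thinned cells gave 6 core genes. Removal of free RNA gave 2473, 15, 4, 9 and 1. Leaving out each library in turn gave 0 to 2933 genes, 0 to 13 members, 0 to 3 core, 0 to 9 cap and 0 to 1 activator genes, with a cap median of 0.27 to 0.37 and an activator median of 0.018 to 0.27; with 3 libraries 1 residual degree of freedom remains, and the lone library is assumed to vary like the others. The core median was 0.19 without TMM, 0.92 per cell and 0.20 at 10 CPM, against 0.30. The cap median, 0.31, was 0.20, 0.93 and 0.21 in these settings, 0.31 with DESeq2, 0.33 unfiltered, 0.30 with Cell Ranger cells, 0.31 at 5% mitochondrial UMIs, 0.29 at 5000 UMIs, 0.29 thinned, 0.29 without free RNA, 0.28 in cells with macrophage markers alone, 0.30 without epithelial UMIs and 0.29 without cycling cells. The activator median, 0.13, was 0.027, 0.75, 0.038, 0.063 thinned, 0.087 without free RNA and 0.079 with macrophage markers alone. The cause was not tested. Leaving out shared barcodes was chosen after seeing the data and moved no count by over 1.5 times.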
